A study of Mus musculus with 6 samples.

Results

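Collagen chains are modified while they fold in the endoplasmic reticulum, and 8 genes of that step are described here by their symbols: P4ha1, P4ha2, P4ha3 and P4hb for prolyl 4-hydroxylase, Plod1, Plod2 and Plod3 for the lysyl hydroxylases, and Serpinh1 for the collagen chaperone Hsp47. All 8 were found among the 24346 gene symbols of the deposited tables, and all 8 passed the filter on low values. The tables hold FPKM, fragment numbers divided by transcript length and by depth. They come from condylar cartilage of the mouse lower jaw, with 3 control libraries labelled fl/fl and 3 libraries of a mutant in which Indian hedgehog (Ihh) was deleted in craniofacial neural crest cells. In mouse genetics fl/fl stands for 2 floxed copies of a gene, and the labels name neither the Cre line of the mutant nor whether the fl/fl mice carried Cre. Age, sex and strain are not given. Whether each library is 1 animal is not given either, so a p-value reflects variation among the 6 libraries, part of which may be technical. Cells outside the neural crest lineage would keep the gene in a deletion of this kind.

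Prolyl 4-hydroxylase turns proline into 4-hydroxyproline in the repeats of the collagen chain, and the triple helix is not stable at body temperature without it. The enzyme is a tetramer of alpha subunits, which carry the catalytic site and are encoded by P4ha1, P4ha2 or P4ha3, and of beta subunits encoded by P4hb. The lysyl hydroxylases act on lysine, and hydroxylysine is where sugars are attached and where cross-links between collagen molecules form. Both kinds of enzyme need oxygen, iron, 2-oxoglutarate and ascorbate. Hsp47 binds the folded triple helix and accompanies it out of the endoplasmic reticulum. In cartilage these genes serve chondrocytes, which secrete large amounts of type II collagen in a tissue with little oxygen, and P4ha1, P4ha2 and Plod2 are known targets of the hypoxia-inducible factors (HIF).

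Relative numbers of fragments, read from the spacing of low values, lay between 0.993 and 1.33 times that of control 1, and the absolute numbers were not known. The targeted gene, Ihh, measured 3.73, 2.51 and 3.74 FPKM in the controls (libraries 1, 2 and 3 in order), against 2.18, 2.33 and 2.66 in the mutants, and it did not pass the test (limma adjusted p = 0.724). Which part of Ihh was deleted is not stated in the labels, so its level is no check of the labels. The hedgehog target Gli1 measured 7.10 to 9.53 FPKM in the controls, against 0.168 to 0.807 in the mutants (limma adjusted p = 0.0152; 0.00757 to 0.691 over 18 alternatives, of which 12 gave a call), so that the groups stood apart as labelled. Of 12 chondrocyte markers, all 12 were tested, and their sum was 390 to 433 FPKM in the controls, against 199 to 235 in the mutants; Matn1, a cartilage matrilin, was listed at 0 in mutant 3. The 6 chains of types II, IX and XI collagen, which mark cartilage, summed to 248.1 to 374.9 FPKM in the controls, below Col1a1 of bone and fibrous tissue alone (1685.5 to 2428.9 FPKM). Transcripts of other tissues were present too: the sum of 20 skeletal muscle markers was 4257 to 10397 FPKM in the controls, against 18341 to 34090 in the mutants. Xist, the transcript of the inactive X chromosome, stood at 29.5 FPKM in control 1 and 29.2 in control 2, and at 0.577 to 0.984 in the other 4 libraries, so the sexes were unequal between the groups.

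Mutant and control cartilage were compared to ask which of these transcripts depart from control levels when the crest lineage lacks Ihh. P4ha2 and P4ha1, which encode catalytic alpha subunits of prolyl 4-hydroxylase, fell in the mutant. The remaining 6 genes did not pass the test, which was limma on log2(FPKM + 1) over 18715 genes with Benjamini-Hochberg adjustment and a threshold of 0.05. Of all genes tested, 1.24% were called by this rule, 0.465% lower and 0.775% higher in the mutant. In 7 of the 8 genes each of the 3 mutant values lay below each of the 3 control values, a pattern seen in 9.4% of all genes tested, and the exception was P4ha3. The log2 fold changes of the 8 genes ranged from -1.64 to 0.04, against a median of 0.00 over all genes tested. In bulk tissue, fewer cells of a type and less RNA per cell cannot be told apart.

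**Figure D1:**
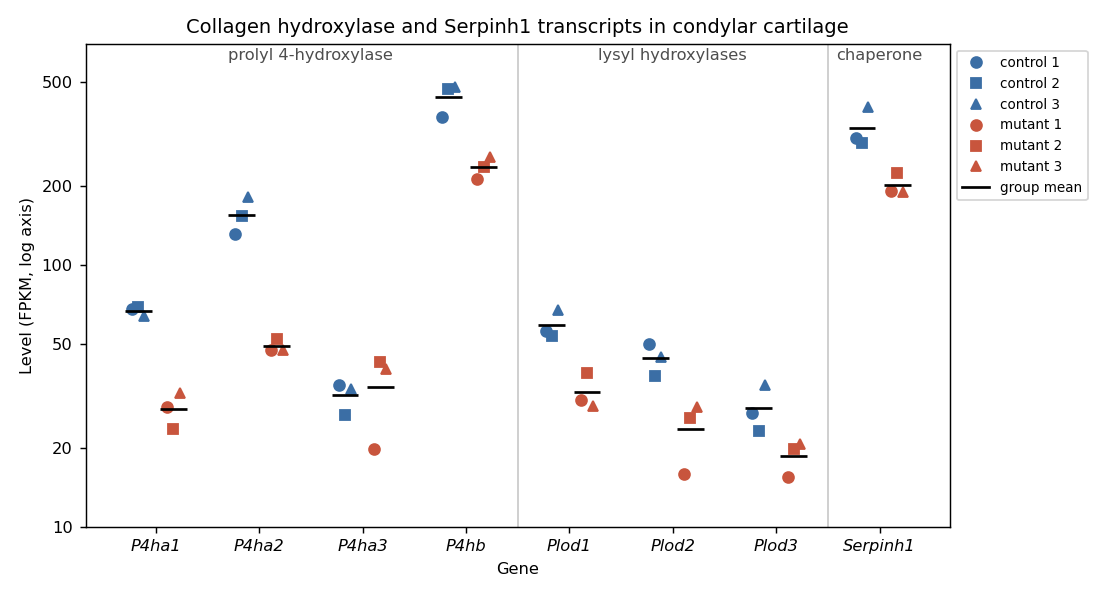
Level of each of the 8 genes (FPKM, logarithmic axis) in the 3 control libraries (blue) and the 3 mutant libraries (red), with symbols for the library numbers and a black line at each group's mean. The mutant points lie below all control points for every gene except P4ha3, where mutants 2 and 3, at 42.5 and 40.2 FPKM, lie above the controls.

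P4ha2 (chromosome 11, 54100095 to 54131665, plus strand, mm10) measured 131.2, 154.1 and 181.3 FPKM in the controls (libraries 1, 2 and 3 in order), against 47.4, 52.0 and 47.5 in the mutants. The mutant values were close to each other and the lowest control stood far above them. The mean went from 155.5 ± 25.1 to 48.9 ± 2.64 FPKM (SD, n = 3 per group), a 3.18-fold difference, with a log2 fold change of -1.64 ± 0.18 (SE; limma adjusted p = 0.0125). P4ha1 (chromosome 10, 59323296 to 59373304, plus strand) measured 68.0, 69.0 and 64.2 FPKM in the controls, against 28.7, 23.6 and 32.3 in the mutants. The controls differed from each other by less than 5 FPKM, and the groups were wide apart. The mean went from 67.1 ± 2.56 to 28.2 ± 4.42 FPKM, a 2.38-fold difference, with a log2 fold change of -1.23 ± 0.19 (SE; limma adjusted p = 0.0250). Both calls were lost without control 2 (limma adjusted p = 0.0541 for P4ha2 and 0.0863 for P4ha1) or without mutant 1 (0.0602 and 0.0931). That of P4ha1 was also lost without control 1 (0.0921) or mutant 2 (0.0734). The log2 fold changes stayed near those of the full fit, at -1.638 and -1.211 without control 2 and -1.615 and -1.25 without mutant 1. Calls over all genes went from 232 to 20 without control 2 and to 19 without mutant 1. The directions held in every one of 18 alternatives, though with the groups apart only other scalings and covariates could have changed them. P4ha2 was called in 12 (limma adjusted p from 0.00435 to 0.684) and P4ha1 in 10 (0.0127 to 0.740).

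The third alpha subunit gene, P4ha3 (chromosome 7, 100285520 to 100319699, plus strand), did not follow the other two. It measured 34.9, 26.7 and 33.7 FPKM in the controls, against 19.7, 42.5 and 40.2 in the mutants. Mutant 1 was the lowest of the 6 libraries and mutants 2 and 3 the highest. The log2 fold change was 0.04 ± 0.29 (SE; limma adjusted p = 0.978), and its 95% interval from -0.63 to 0.70 lay apart from the estimates of P4ha1 and P4ha2; a difference between the subunits was not tested. P4ha3 was the only one of the 8 genes whose sign depended on the setting: it was negative after quantile normalization (-0.02) and when FPKM was rescaled without muscle genes (-0.08), and without mutant 1 it was 0.38.

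P4hb (chromosome 11, 120560298 to 120573253, minus strand) encodes the beta subunit, which is also protein disulfide isomerase and acts on many secreted proteins apart from collagen. It measured 367.2, 471.3 and 479.8 FPKM in the controls, against 213.8, 237.4 and 259.1 in the mutants. The groups did not overlap, and control 1 was the control nearest to the mutants. The log2 fold change was -0.88 ± 0.18 (SE; limma adjusted p = 0.0587), which did not pass. P4hb was called in 3 of 18 alternative settings: with a filter at 5 FPKM (adjusted p = 0.0355), after quantile normalization (0.0352) and when FPKM was rescaled to the sum without muscle genes (0.0227), with all settings spanning 0.0227 to 0.806.

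Because the alpha subunits share the same partner, their makeup was compared within each library, a measure chosen after the values were seen. The 3 alpha subunit genes summed to 234.2, 249.7 and 279.2 FPKM in the controls (libraries 1, 2 and 3 in order), against 95.9, 118.1 and 119.9 in the mutants. The share of P4ha2 was 56.0%, 61.7% and 64.9% in controls and 49.5%, 44.0% and 39.6% in mutants. P4ha3 held 14.9%, 10.7% and 12.1% of the sum in controls and 20.6%, 36.0% and 33.5% in mutants. The mutants thus had a smaller part of P4ha2 and a larger part of P4ha3 than any control. P4ha1, the subunit of most tissues, kept to a range that overlapped between the groups, from 23.0% to 29.1% and from 19.9% to 29.9%. P4ha2 thus remained the most abundant alpha subunit transcript in all 6 libraries, with a smaller lead over P4ha3: the ratio of P4ha2 to P4ha3 was 3.76 to 5.78 in controls and 1.18 to 2.40 in mutants. P4hb per alpha subunit transcript was 1.57 to 1.89 in controls and 2.01 to 2.23 in mutants. These shares were given no test, since the genes were chosen with results known.

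**Figure D2:**
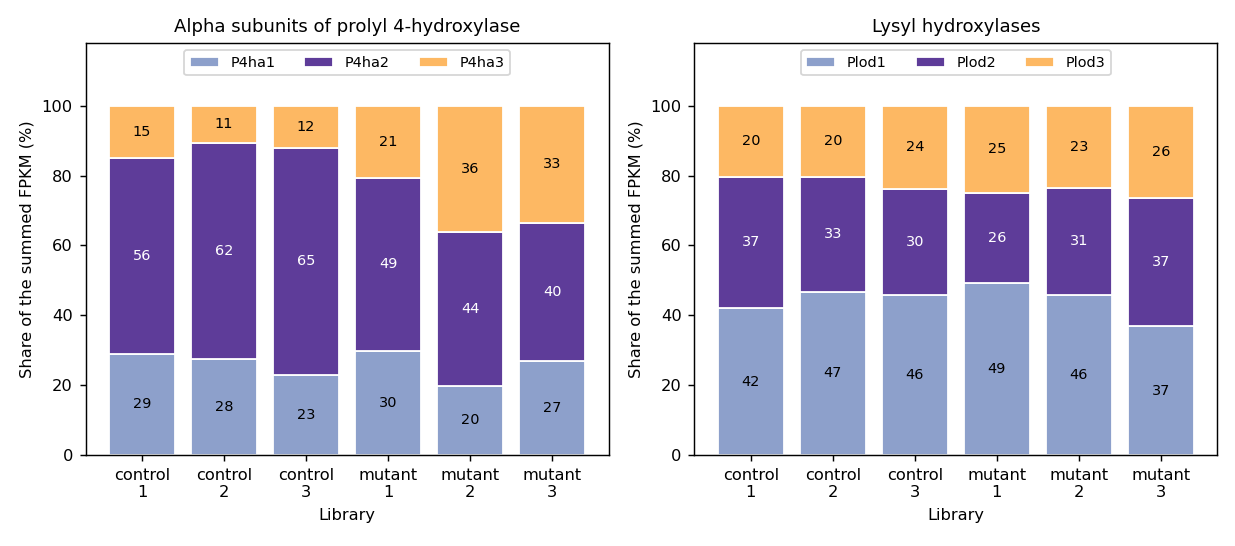
Share of each gene (percent of the summed FPKM, from 0) among the 3 alpha subunits of prolyl 4-hydroxylase (left) and among the 3 lysyl hydroxylases (right), 1 bar per library, with rounded percentages printed in the bars. In the left panel the P4ha2 segment is smaller and the P4ha3 segment larger in all mutants than in all controls, and in the right panel the segments of each gene overlap between the groups.

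The stretch of 250 bases before the annotated start of each gene is shown for the alpha subunit genes, because P4ha1 and P4ha2 fell and P4ha3 did not pass the test. The sequences are from RefSeq (GRCm38.p6, the assembly of mm10), on the strand of the gene, at chr10:59323046-59323295 for P4ha1, chr11:54100674-54100923 for P4ha2 and chr7:100285270-100285519 for P4ha3. The windows overlap no exon in GENCODE M21; that of P4ha2 lies in an intron of a longer transcript of the gene. Capitals mark the core of the hypoxia response element, searched as ACGTG and GCGTG on both strands, so that CACGT and CACGC are matches on the other strand.
P4ha1: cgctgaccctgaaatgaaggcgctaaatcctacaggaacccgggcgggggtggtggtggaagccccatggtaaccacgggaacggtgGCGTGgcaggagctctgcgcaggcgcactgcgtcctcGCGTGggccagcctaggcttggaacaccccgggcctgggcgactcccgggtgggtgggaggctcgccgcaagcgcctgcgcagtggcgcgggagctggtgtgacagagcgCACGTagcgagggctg
P4ha2: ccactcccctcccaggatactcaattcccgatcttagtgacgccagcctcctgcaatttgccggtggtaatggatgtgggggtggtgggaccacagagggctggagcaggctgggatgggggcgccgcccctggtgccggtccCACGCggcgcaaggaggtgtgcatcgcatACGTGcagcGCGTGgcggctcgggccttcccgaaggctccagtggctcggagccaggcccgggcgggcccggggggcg
P4ha3: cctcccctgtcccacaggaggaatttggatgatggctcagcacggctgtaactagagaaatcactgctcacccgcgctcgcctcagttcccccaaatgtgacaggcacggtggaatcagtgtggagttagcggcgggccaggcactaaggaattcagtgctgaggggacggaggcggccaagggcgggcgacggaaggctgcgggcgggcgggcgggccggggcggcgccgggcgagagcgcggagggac
P4ha1 held 3 matches, whose first letters lay 163, 126 and 16 bases before the start, and P4ha2 held 3, at 107, 78 and 69 bases. P4ha3 held 0. The same window of P4hb held 2, that of Plod1 1, that of Serpinh1 1 and that of Plod3 4, the last being the gene with the smallest difference among the 7 that were lower. The windows of P4ha1, P4ha2 and P4ha3 held 69.6%, 70.0% and 67.2% G or C, and both cores searched hold a C followed by a G. Of 32841 windows of this length in the RefSeq table, 38.6% held at least 1 match and 6.58% held at least 3. Overlapping matches were counted separately, and these windows were not matched for their content of G and C. The Gli consensus GACCACCCA, searched on both strands, had 0 matches in the 7 windows of the genes described here and was found in 0.225% of all windows. A match is a run of letters in a window, and no binding was measured. The table gave 7 of the 8 genes, without Plod2.

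The lysyl hydroxylases were all lower in the mutant without passing the test. Plod1 (chromosome 4, 147909753 to 147936767, minus strand), which hydroxylates lysines in the helix, measured 56.2, 53.6 and 67.3 FPKM in the controls, against 30.4, 38.6 and 28.8 in the mutants. The highest mutant, mutant 2, lay well under the lowest control. Its log2 fold change was -0.84 ± 0.19 (SE; limma adjusted p = 0.0796). Plod2 (chromosome 9, 92542223 to 92608428, plus strand), which acts on the telopeptides at the ends of the chains, measured 49.8, 37.6 and 44.7 FPKM in the controls, against 15.9, 26.0 and 28.8 in the mutants. Mutant 1 had the lowest value, and mutant 3 came nearest to the controls. Its log2 fold change was -0.91 ± 0.25 (SE; limma adjusted p = 0.130). Plod3 (chromosome 5, 136987019 to 136996648, plus strand), which also transfers sugars to hydroxylysine, measured 27.2, 23.3 and 34.9 FPKM in the controls, against 15.4, 19.8 and 20.6 in the mutants. Control 2 and mutant 3 were less than 3 FPKM apart, so the groups were separate by a narrow gap. Its log2 fold change was -0.58 ± 0.22 (SE; limma adjusted p = 0.277).

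The makeup of the lysyl hydroxylases overlapped between the groups. Plod1 made up 42.2% to 46.8% of their sum in controls and 36.8% to 49.3% in mutants, Plod2 30.4% to 37.4% and 25.8% to 36.8%, and Plod3 20.3% to 23.8% and 23.5% to 26.4%. For each gene the range in controls met the range in mutants. Plod2 shares exon sequence with Gm38391 and Plod3 with Znhit1, each on the opposite strand, and the libraries do not keep strand, so reads of these partners could not be separated. The microRNA gene Mir702 lies within Plod3.

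Serpinh1 (chromosome 7, 99345376 to 99353239, minus strand) measured 305.8, 293.1 and 403.3 FPKM in the controls, against 192.2, 225.8 and 190.7 in the mutants. Control 3 was the highest library and the mutants lay close together below all controls. The mean went from 334.1 ± 60.3 to 202.9 ± 19.8 FPKM (SD, n = 3 per group), with a log2 fold change of -0.71 ± 0.19 (SE; limma adjusted p = 0.119). With FPKM rescaled without muscle genes, Plod1 (adjusted p = 0.0287) and Serpinh1 (adjusted p = 0.0389) also passed, in ranges from 0.0287 to 0.694 and from 0.0279 to 0.714 over the settings tried. Under that scaling 5 of the 8 genes were called, and of all calls 197 of 375 were lower in the mutant, against 87 of 232 without it. The scaling also equalizes the sums of the libraries, which were 581072 to 637690 FPKM in controls and 635747 to 738395 in mutants with muscle genes included. The median log2 fold change over all genes was -0.095 under it, against 0.001 without it, so the shift was general. The part of muscle transcripts in the added calls was not tested.

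Set side by side, the prolyl 4-hydroxylase genes had a mean log2 fold change of -0.93 and the lysyl hydroxylases of -0.78. The difference of -0.15 rests on group means. The spread between single libraries of a group was 0.13 (SD), which is not the error of that difference. With the muscle list as a covariate the difference was 0.20. P4ha3 enters the first of these means. Without it, the mean log2 level of P4ha1, P4ha2 and P4hb exceeded that of the 3 lysyl hydroxylases by 1.79 to 2.22 in controls and by 1.27 to 1.71 in mutants, a contrast chosen after the values were seen. Per library, the summed alpha subunits were 1.76, 2.18 and 1.90 times the summed lysyl hydroxylases in controls and 1.55, 1.40 and 1.53 times in mutants. These ratios did not overlap, but those of P4ha2 to Plod2 and of P4ha1 to Plod1 did. Both pairs were picked from several possible ones, and the ratio of P4ha2 to Plod1 did not overlap. P4ha2 was 2.63 to 4.10 times Plod2 in controls and 1.65 to 2.98 times in mutants. P4ha1 was 0.954 to 1.29 times Plod1 in controls and 0.610 to 1.12 times in mutants. No test was made of the prolyl against the lysyl genes, so the data give their values and not a difference in response.

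FPKM is scaled to length, so that levels can be set in order between genes. In controls the order by mean was P4hb (439.4 FPKM), Serpinh1 (334.1), P4ha2 (155.5), P4ha1 (67.1), Plod1 (59.0), Plod2 (44.1), P4ha3 (31.8) and Plod3 (28.5). Of these neighbours P4hb and Serpinh1, P4ha1 and Plod1, and P4ha3 and Plod3 had overlapping ranges. In mutants the order was P4hb (236.8 FPKM), Serpinh1 (202.9), P4ha2 (48.9), P4ha3 (34.1), Plod1 (32.6), P4ha1 (28.2), Plod2 (23.6) and Plod3 (18.6). From P4ha3 downwards every neighbour overlapped with the next, as did P4hb and Serpinh1. P4ha1 ranked 4th or 5th among the 8 genes in the controls and 5th or 7th in the mutants. Against all genes tested, P4hb stood at percentile 99.1 of mean level in controls and 98.2 in mutants, and Plod3, the lowest, at 85.8 and 78.2.

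**Figure D3:**
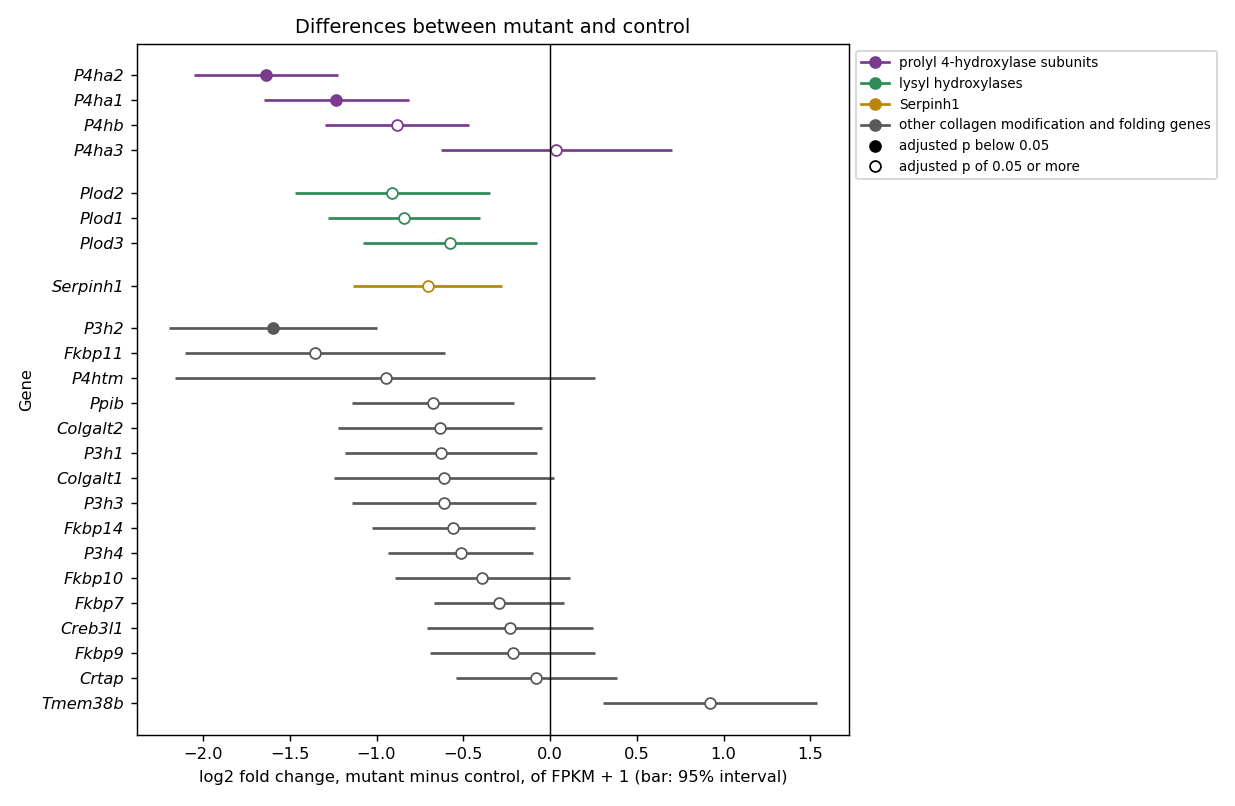
Log2 fold change of FPKM + 1, mutant minus control, with its 95% interval from limma, for the 8 genes and for 16 other genes of collagen modification and folding. Filled points have an adjusted p below 0.05, which holds for P4ha2, P4ha1 and P3h2; the interval of P4ha3 spans 0 and Tmem38b is the single gene of the other 16 above 0.

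Other genes of the same step in the endoplasmic reticulum were taken from a list of 16. Of these 1 fell and 0 rose, 9 had an unadjusted limma p under 0.05, and the median log2 fold change was -0.58. Of all 18715 genes tested, 2630, or 14.1%, had an unadjusted p under 0.05. The gene that fell was P3h2, a prolyl 3-hydroxylase, at 10.6, 12.0 and 15.1 FPKM in the controls, against 4.44, 2.56 and 3.56 in the mutants (log2 fold change -1.59, limma adjusted p = 0.0319). It was called in 9 of 18 alternatives (adjusted p from 0.0171 to 0.725), and of the 6 fits with 1 library left out the call held only without mutant 3. Fkbp11, a prolyl isomerase of the endoplasmic reticulum, measured 179.6 ± 41.1 and 73.7 ± 36.0 FPKM (adjusted p = 0.0928), and Ppib, the cyclophilin of the prolyl 3-hydroxylase complex, 210.5 ± 40.4 and 131.1 ± 21.2 FPKM (adjusted p = 0.167). Tmem38b, an ion channel of the endoplasmic reticulum, had the single positive value, at 8.0 ± 2.1 FPKM in the controls, against 16.0 ± 4.21 in the mutants (adjusted p = 0.155). Of 12 genes of procollagen export and propeptide removal 0 passed, with 2 at an unadjusted limma p under 0.05, a share near the 14.1% of all genes, and a median of -0.19. By the rule of smallest p, Sec23a, a COPII coat gene, is given at 39.7 ± 2.44 and 30.0 ± 1.58 FPKM (adjusted p = 0.352), and Pcolce2, an enhancer of propeptide removal, had a log2 fold change of 0.62 (adjusted p = 0.311).

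General folding genes of the endoplasmic reticulum stood lower as well, with 3 of 17 falling, 0 rising and a median log2 fold change of -0.74. The 3 were the chaperone Hsp90b1 (235.3 ± 24.3 to 98.7 ± 6.75 FPKM, limma adjusted p = 0.0189), Manf (45.4 ± 5.29 to 18.8 ± 4.10 FPKM, adjusted p = 0.0349) and the disulfide isomerase Pdia4 (102.0 ± 10.3 to 51.9 ± 1.5 FPKM, adjusted p = 0.0374). The isomerase Pdia6, related to P4hb, had a log2 fold change of -0.93 (adjusted p = 0.0598), beside -0.88 for P4hb. With 1 library left out, Hsp90b1 was called in 2 of 6 fits, without control 3 or without mutant 3, and Manf and Pdia4 in 1, without mutant 3.

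Collagen chains, the substrates of these enzymes, changed unevenly: 5 of 20 fell, 0 rose, and the median log2 fold change was -0.50. The 5 were Col12a1, Col9a2, Col9a1, Col6a3 and Col11a1, with log2 fold changes from -1.75 to -1.13 (limma adjusted p from 0.0377 to 0.0496). With 1 library left out, Col9a1 and Col9a2 were called in 0 of 6 fits, Col12a1 and Col11a1 in 1, without mutant 2, and Col6a3 in 1, without mutant 3. The main chains of bone and fibrous tissue, Col1a1 and Col1a2, had log2 fold changes of 0.20 and 0.20 (adjusted p = 0.848 and 0.827), negative after quantile normalization (-0.09 and -0.05), and they dominated the summed collagen transcripts. Against this sum the enzymes were set in ratios chosen after the values were seen. Per 1000 FPKM of Col1a1, Col1a2 and Col3a1, the alpha subunits summed to 45.02, 54.4 and 42.7 FPKM in the controls, against 24.8, 14.2 and 21.1 in the mutants. The lysyl hydroxylases summed to 25.6, 24.9 and 22.5 FPKM in the controls, against 16.0, 10.1 and 13.8 in the mutants, again without overlap. Serpinh1 was nearly constant in this ratio among the controls, at 58.8, 63.9 and 61.7, and was 49.7, 27.1 and 33.5 in the mutants. P4ha3 overlapped, at 5.16 to 6.71 and 5.10 to 7.06. Against the chains of cartilage (types II, IX and XI) only the alpha subunits were set in a ratio, and in it the groups overlapped. The alpha subunits were 0.798, 1.01 and 0.745 times the sum of these chains in controls and 0.823, 0.653 and 1.20 times in mutants. The mutant mean was 0.433 times the control mean for these chains and 0.4375 times for the alpha subunits. It was 0.569 times for the lysyl hydroxylases and 0.607 times for Serpinh1, which thus stood lower by a smaller factor than these chains.

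**Figure D4:**
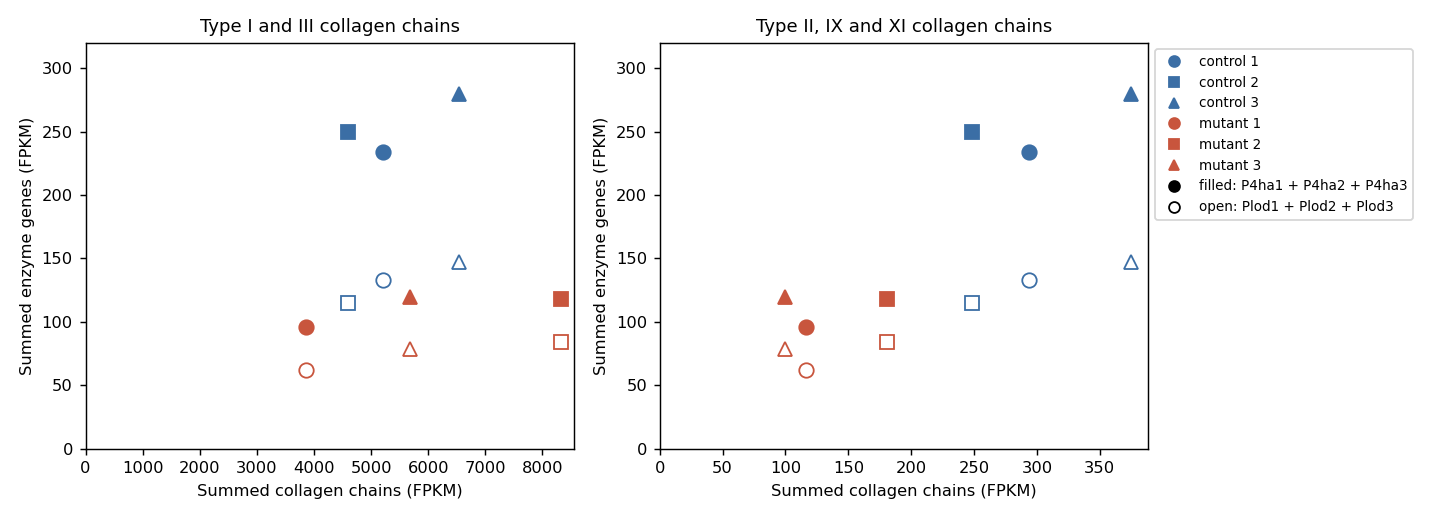
Summed FPKM of the alpha subunit genes (filled) and of the lysyl hydroxylases (open) against the summed FPKM of Col1a1, Col1a2 and Col3a1 (left) or of 6 type II, IX and XI chains (right), 1 symbol of each kind per library, with both axes from 0. On the left, controls (blue) and mutants (red) overlap along the horizontal axis and are apart on the vertical axis; on the right they are apart on both.

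The HIF targets other than the 8 genes were also lower in part, with 3 of 18 falling, 0 rising and a median log2 fold change of -0.58. They were Car9, a carbonic anhydrase (55.0 ± 9.77 to 9.51 ± 3.67 FPKM, limma adjusted p = 0.0153), and the glycolytic enzymes Pgam1 (365.7 ± 29.5 to 143.4 ± 6.65 FPKM, adjusted p = 0.0153) and Eno1 (328.1 ± 45.8 to 165.1 ± 22.9 FPKM, adjusted p = 0.0466). With 1 library left out, Car9 was called in 4 of 6 fits, all but those without control 1 or control 2, Pgam1 in 3, which also lacks the fit without mutant 1, and Eno1 in 0. Others did not go with them: Egln3, a HIF prolyl hydroxylase and itself a HIF target, had a log2 fold change of 0.22 (adjusted p = 0.818), negative with either covariate and without mutant 2 (-0.01). Adm, which encodes adrenomedullin, measured 3.56, 1.19 and 0 FPKM in the controls, against 8.32, 5.92 and 7.88 in the mutants (adjusted p = 0.112). Of 8 genes for oxygen sensing and for uptake of ascorbate and iron, the enzymes' cofactors, 0 passed in either direction, with 1 at an unadjusted limma p under 0.05, again near the 14.1% of all genes, and a median of 0.09. The smallest p was that of Hif1an, which hydroxylates HIF on asparagine, at 4.35 ± 1.46 and 7.70 ± 0.30 FPKM (adjusted p = 0.270).

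**Figure D5:**
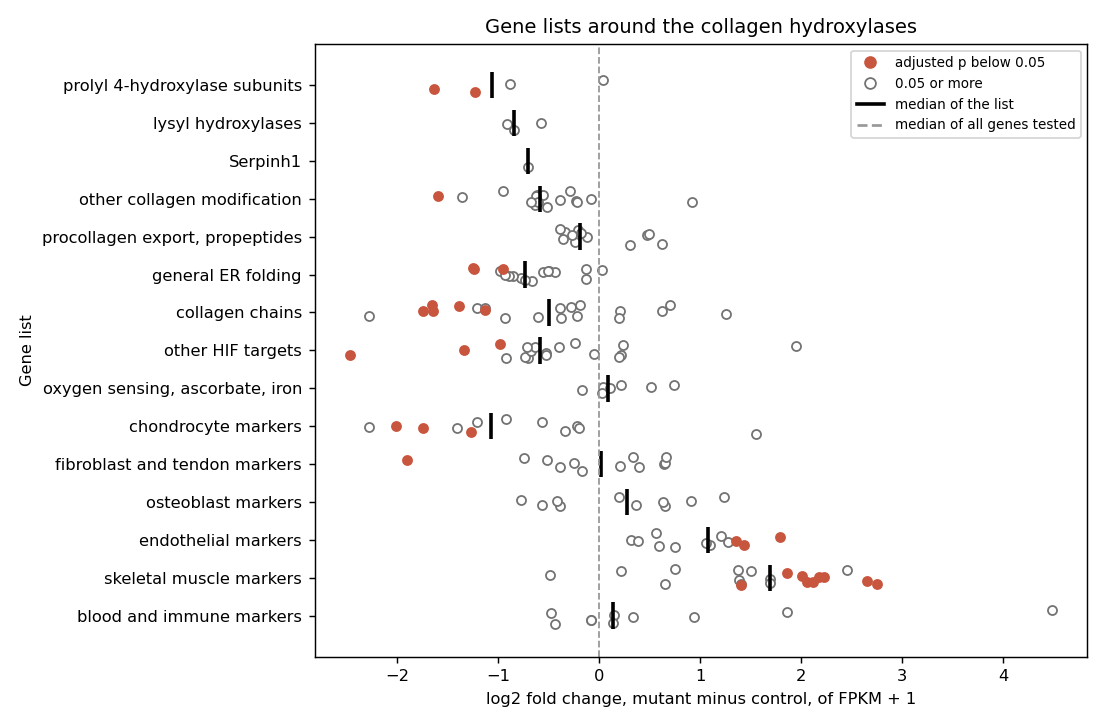
Log2 fold change of FPKM + 1, mutant minus control, for the genes of each list, with red points for an adjusted p below 0.05, a black line at each list's median and a dashed line at the median of all genes tested. The medians of the prolyl and lysyl genes, -1.06 and -0.84, lie left of 0 with that of the chondrocyte markers (-1.07), and those of the endothelial and skeletal muscle markers, 1.07 and 1.69, lie right of it.

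Profiles closest to those of the enzymes were sought among 3551 other genes with a mean of at least 20 FPKM, by the root mean square difference of log2 values centred on their mean over the 6 libraries. Nearest to P4ha2 were Mif (0.145 log2 units), the sulfate transporter Slc26a2 (0.161) and Capn6 (0.180). Nearest to P4ha1 were the smooth muscle actin Acta2 (0.123), the sterol synthesis enzyme Hmgcs1 (0.154) and the collagen chain Col9a3 (0.167). Plod2 was followed by Srpx2 (0.125), Col6a3 (0.148) and Fkbp1b (0.151). Serpinh1 had the closest neighbours, Gnb4 (0.080), Ppib (0.087) and Copz1 (0.092).

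Transcripts of other tissues and of sex differed between the same groups as the 8 genes, and the fits given here do not separate their part from that of the genotype. Of 20 skeletal muscle markers 9 rose and 0 fell, and the list made up 0.714% to 1.63% of all FPKM in controls and 2.89% to 4.62% in mutants. Of 12 endothelial markers 3 rose and 0 fell (summed 110 to 176 and 294 to 341 FPKM). Of 12 chondrocyte markers 3 fell (Hapln1, Acan and Col9a1). In this list 11 had a negative log2 fold change and 1, Comp, a positive one (1.56, limma adjusted p = 0.173). Comp measured 22.6, 12.9 and 9.19 FPKM in the controls, against 37.4, 23.0 and 91.9 in the mutants. The groups did not overlap, but control 1 and mutant 2 nearly met. All mutants lay above all controls in 9.77% of all genes tested. Of 12 fibroblast and tendon markers 1 fell, Postn. Of 10 osteoblast markers and of 10 blood and immune markers 0 passed. An unadjusted limma p under 0.05 was found in 1 and 2 of them, near the share of 14.1% over all genes. With the muscle list as a covariate, the log2 fold change was -1.83 for P4ha2 and -0.85 for P4ha1, and neither was called (limma adjusted p = 0.684 and 0.740). The muscle share did not overlap between the groups, so that covariate and the genotype can hardly be told apart. The SE went from 0.183 to 0.398 for P4ha2 and from 0.185 to 0.387 for P4ha1, and 2 genes were called in all. The lost calls therefore do not show what part muscle had. Between control 3, the control with low Xist, and the 3 mutants it was -1.87 for P4ha2 (adjusted p = 0.167) and -1.17 for P4ha1 (adjusted p = 0.356), where the lone control was assumed to vary as the mutants did. Over all 18 alternatives the log2 fold change of P4ha2 stayed between -1.87 and -1.52 and that of P4ha1 between -1.34 and -0.85.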

How the data were processed

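Condylar cartilage was dissected under a microscope and total RNA was extracted with the miRNeasy Mini Kit, per the labels' protocols. The cDNA was prepared by SMART-Seq HT and the libraries by a Nextera kit, neither of which keeps strand. The deposited tables, 1 per library, hold FPKM as the authors computed it. That unit is not in the headers: it was taken from decimal values, from sums of 581072 to 738395 per library and from Cufflinks in the submitters' processing notes. Those notes name TopHat2 2.0.13, Bowtie2 2.2.3, SAMtools 0.1.19, Cufflinks 2.2.1 and the build mm10. No source used here names the annotation.

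The test used the 18715 genes that reached 1 FPKM in 3 or more libraries. It was limma (version 3.58.1, R 4.3.3) on log2(FPKM + 1), with trend, robust moderation and group as the only term, and Benjamini-Hochberg adjustment over all genes. Fold changes on this scale understate changes of low genes. The code was tested on simulated data. The 8 genes and the lists were chosen with earlier results of these data known, so lists are described by counts and medians, with no set test. The rule for named genes took the 8 genes, called list genes and otherwise up to 3 per list with the smallest p, and 3 nearest profiles for P4ha1, P4ha2, Plod2 and Serpinh1; other genes were chosen after their values were seen, and not every gene of the rule is printed. Gene positions are from GENCODE M21. Alternatives were other scalings, filters, a pseudocount of 0.1, weights, moderation, covariates, a replicate block and left-out libraries.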

Additional observations from a re-analysis of the deposited data

How the results depend on the processing

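P4ha1 and P4ha2 kept their direction in all 18 alternatives, as did P4hb, Plod1, Plod2, Plod3 and Serpinh1, and in each the mutant values used lay below the control values. The groups were already apart for these genes in the full fit, so only the other scalings could have closed the gap. Only those scalings and the covariates could have changed a direction. P4ha3, never called, changed sign in 8. It went to -0.017 after quantile normalization, -0.077 with FPKM rescaled without muscle genes, and -0.10 and -0.17 with Xist or the muscle list as a covariate. It was -0.058 without controls 1 and 2, and -0.082, -0.156 and -0.116 without control 2, mutant 2 or mutant 3. Without control 1, control 3 or mutant 1 it stayed positive, at 0.106, 0.082 and 0.378. Of the 8 genes, 4 were called with a filter at 5 FPKM, 5 after quantile normalization and 5 with the rescaling. With Xist or the muscle list as a covariate, or without controls 1 and 2, 0 were called, and leaving out 1 library left 0 to 2. The prolyl minus lysyl difference of -0.15 became 0.20 with the muscle covariate and otherwise stayed within 1 SD. Of the 16 other collagen modification genes, 2 were called after quantile normalization and 2 with the rescaling, 0 with either covariate or without controls 1 and 2, and 0 to 1 without 1 library. Calls over all genes numbered 133 without a filter, 440 with a filter at 5 FPKM, 411 after quantile normalization, 375 with the rescaling, 2 with the Xist covariate, 2 with the muscle covariate, 5 without controls 1 and 2, and, of the fits with 1 library left out, 13 lacking control 1, 20 lacking control 2, 19 lacking mutant 1, 57 lacking mutant 2 and 414 lacking mutant 3. Among other named genes, Col1a1, Col1a2 and Egln3, never called, also changed sign: Col1a1 to -0.086 and Col1a2 to -0.054 after quantile normalization, to -0.066, -0.094 and -0.035 with the Xist covariate, to -0.666, -0.384 and -0.869 with the muscle covariate, to -0.031, -0.068 and -0.04 without controls 1 and 2, and, without mutant 2, to -0.142, -0.06 and -0.015, in this order of genes, against highest values with 1 library left out of 0.496, 0.451 and 0.465. The cause of these shifts was not tested, except that fewer libraries enter the last ones.

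The labels do not say whether equal replicate numbers pair the samples. Deviations of same-numbered libraries from their group means correlated at 0.006, -0.016 and -0.009 over genes. These values show no deviation shared over all genes, and whether such libraries shared a litter or handling is not given. With the replicate number as a block, 2 genes were called in all, 0 of the 8 and 0 of the 16, with adjusted p of 0.0636 for P4ha2 and 0.0910 for P4ha1. Absolute depth was unknown, so no counting interval is given, and 3 libraries per group limit what can be called.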
